A study of Bos taurus with 60 samples.

Results

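The 100 genes described here were abundant transcripts of the bovine endometrium whose mean level was highest in heifers that had received n-3 PUFA and were then fed a low plane of nutrition. They were taken from 24616 Ensembl genes counted by RNA sequencing in 60 heifers. Genes that passed the expression filter of edgeR (14363) were put on a log2 scale of CPM, counts scaled to a common library size, and 3210 of them had a mean log2 CPM of 6 or more over all heifers. Genes with a heifer 3 or more above the median were left out. So were genes with a Pearson r beyond ±0.4 with ENSBTAG00000008471, and the 100 genes with the largest row sums. ENSBTAG00000008471 is called the reference gene below because it served for this limit. It was not used for scaling, and its own log2 CPM ran from 1.58 to 11.2 across heifers. Of the 2412 genes left, the 100 with the largest gap were kept, where the gap is the mean of the PUFA_Low group minus the highest mean of the other 3 groups. The genes were thus chosen by their group means in these same heifers, so the level in PUFA_Low against the other groups is given below as a description. Fold changes and calls from the model over all genes are listed for these contrasts too, and they are no independent test of the genes chosen.

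All animals were nulliparous crossbred beef heifers with synchronised oestrous cycles, inseminated by AI, and endometrium was taken 16 days later. Control heifers (CON) received a ration with a palmitic acid supplement for 30 days before insemination, and n-3 PUFA heifers received the same ration with a supplement based on fish oil. After insemination each heifer either stayed on the high plane (CON_High, n = 14; PUFA_High, n = 17) or was restricted to less than its estimated maintenance energy requirement, with the lipid supplement kept (CON_Low, n = 14; PUFA_Low, n = 15). Pregnant and non-pregnant heifers were both present in each group, and their status was not used here. By the title of each sample, PUFA_Low holds 15 and PUFA_High 17 heifers, whereas the design text deposited with them gives 17 and 15, and the methods of the study carry both versions. Groups follow the sample titles. If the low and high labels of supplemented heifers were exchanged, the heifers called PUFA_Low here would be high plane animals, and their comparisons with a control group of the same plane and the interaction would take other values, which are given with the alternatives. Total counts ran from 9635801 to 13943813 per heifer (median 11556278).

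The endometrium is the lining of the uterus, made of luminal and glandular epithelium over a stroma with blood vessels and immune cells. Around the time sampled here its glands secrete the nutrients on which the unattached conceptus lives, and interferon tau from the conceptus signals pregnancy to the dam. The n-3 fatty acids of fish oil enter cell membranes and compete with the n-6 fatty acids from which prostaglandins are made, and energy restriction alters the hormones and metabolites that reach the uterus. Genes are known here by Ensembl identifier alone, since no identifier could be paired with a symbol. The 100 genes are therefore described by their levels and their rank by gap, the 2 with the largest gap are given by identifier, and their functions, sequences and cell types of origin, as well as the tissue's own markers, were not checked here. Whether a gene shares reads with a near-identical copy could not be looked up either.

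The genes covered the abundant range from its lower limit upwards. The median of their mean log2 CPM was 8.23, with a range from 6.01 to 9.87, against a median of 6.85 for the 2312 eligible genes that were not chosen, and 78 of the 100 were above the median of all eligible genes. Mean levels in PUFA_Low ran from 85.2 to 1467 CPM with a median of 463 CPM, and 47 genes exceeded 500 CPM there. The lowest count of a gene in any heifer had a median of 1612.5 over the 100 genes. Gaps ran from 0.36 to 1.14 on the log2 scale with a median of 0.52. Only 3 genes had a gap above 1, and 34 had one above 1.5-fold. The last 2 genes inside the limit had gaps of 0.364 and 0.363 and the first 2 outside it 0.361 and 0.36, so the list ends within a continuous range. Of the eligible genes, 994 had a positive gap.

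The gene with the largest gap was ENSBTAG00000046100. In the 15 PUFA_Low heifers it ranged from 186 to 589 CPM with a median of 362 CPM. It ranged from 73.0 to 215 CPM (median 141) in PUFA_High, from 80.8 to 309 CPM (median 140) in CON_Low and from 109 to 367 CPM (median 152) in CON_High. All 15 PUFA_Low heifers were above the median of each other group, and 13 of them were above the highest PUFA_High heifer, but the ranges of all groups overlapped. Its mean was 373 ± 128 CPM (SD, n = 15) in PUFA_Low and 146 ± 33.4 CPM (SD, n = 17) in PUFA_High, a log2 fold change of 1.36 (standard error 0.178). It was 167 ± 81.1 CPM (SD, n = 14) in CON_Low, so that the difference to PUFA_Low was 1.16 (standard error 0.188), and 168 ± 65.4 CPM (SD, n = 14) in CON_High.

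ENSBTAG00000019253 came next. Its level ranged from 77.2 to 304 CPM (median 160) in PUFA_Low and from 49.2 to 94.6 CPM (median 67.0) in PUFA_High. The control heifers spanned 44.9 to 136 CPM (median 63.5) on the low plane and 42.5 to 150 CPM (median 69.6) on the high plane. Again 13 of the 15 PUFA_Low heifers were above all PUFA_High heifers, and no heifer of another group reached the PUFA_Low median. The log2 fold change from PUFA_High to PUFA_Low was 1.20 (standard error 0.167) and from CON_Low to PUFA_Low 1.08 (standard error 0.177).

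Genes further down the list differed in how far the groups overlapped. The most abundant in PUFA_Low, at rank 19 and named here after its values had been seen, ranged from 819 to 2956 CPM there (median 1263), from 408 to 1170 CPM in PUFA_High (median 696), from 524 to 1138 CPM in CON_Low (median 733) and from 595 to 1909 CPM in CON_High (median 776). Its top control heifer lay above the PUFA_Low median. The gene at rank 35, also picked after its values had been seen, had a median of 504 CPM in PUFA_Low, and 8 heifers of the other groups were above it, with 1761 CPM in the highest PUFA_High heifer. No gene of the 100, and none of the 14363 tested (0%), had all PUFA_Low heifers above all PUFA_High heifers or above all CON_Low heifers.

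From PUFA_High to PUFA_Low, the fold changes of the 100 genes ran from 0.39 to 1.36 on the log2 scale with a median of 0.77, against a median of -0.03 for all genes tested. From CON_Low to PUFA_Low they ran from 0.37 to 1.16 with a median of 0.66. A gene was called where edgeR's quasi-likelihood test gave an adjusted p-value below 0.10 with more than 1.5-fold change. By this rule 85 of the 100 were called higher in PUFA_Low than in PUFA_High, where 2.44% of all genes tested were called in that direction. From CON_Low to PUFA_Low it was 65 of the 100 and 1.52% of all genes, and for the interaction of supplement and plane 86 of the 100 and 4.46%. All of them share the PUFA_Low heifers, and the ranking used them, so the counts describe the list and nothing more is read from them. They also depend on the threshold and the scaling. At an adjusted p-value below 0.001, the limit in the methods of the study, 79 of the 100 were called from PUFA_High to PUFA_Low (1.33% of all genes), 24 from CON_Low to PUFA_Low (0.306%) and 0 for the interaction (0%), where 96 of the 100 were higher at an unadjusted p-value under 0.05 (15.7% of all genes) and DESeq2 called 87 higher at 0.10 (4.92%). With scaling by total counts alone, 29 were called from CON_Low to PUFA_Low (0.703% of all genes). In bulk tissue, more RNA of a gene per cell and more cells that express it cannot be told apart.

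**Figure D1:**
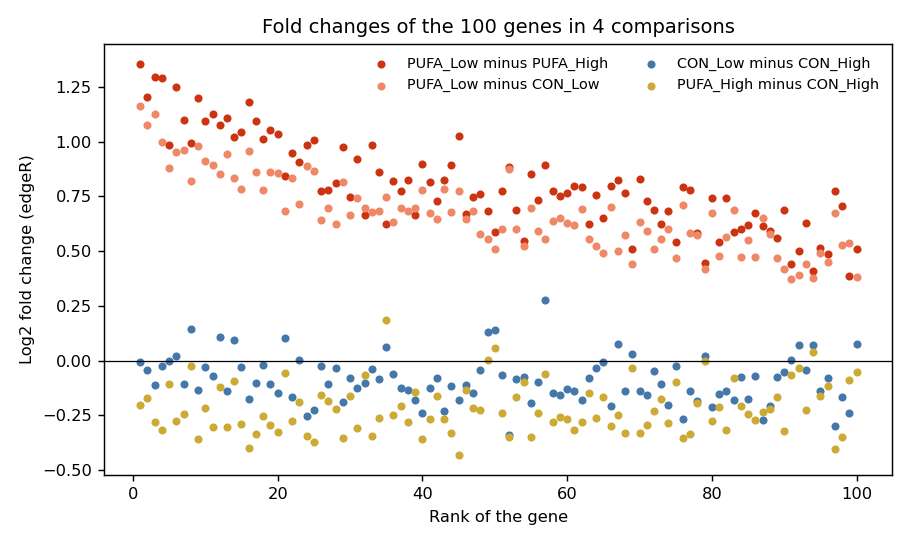
Log2 fold change (edgeR) of each of the 100 genes, ordered by rank, in 4 comparisons. The contrasts that hold PUFA_Low lie between 0.37 and 1.36 because the genes were ranked on them, whereas those among the other 3 groups lie between -0.43 and 0.28.

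The mean log2 CPM over the 100 genes was computed for each heifer. It was 8.55 ± 0.412 (SD, n = 15) in PUFA_Low, where heifers ranged from 8.02 to 9.32 with a median of 8.42. In PUFA_High it was 7.78 ± 0.247 (SD, n = 17; range 7.17 to 8.33, median 7.83), in CON_Low 7.92 ± 0.255 (SD, n = 14; range 7.58 to 8.26, median 7.83) and in CON_High 7.97 ± 0.365 (SD, n = 14; range 7.53 to 8.96, median 7.87). The groups overlapped at the lower end of PUFA_Low, where 5 CON_Low, 5 CON_High and 2 PUFA_High heifers were above its lowest animal, and its SD was the largest of the 4 groups. Of the 15, 10 were above every PUFA_High heifer, 11 above every CON_Low heifer and 2 above every CON_High heifer.

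A control heifer on the high plane, CON_High replicate 11, had a mean of 8.96, the third of all 60 after PUFA_Low replicates 10 (9.32) and 7 (9.19). It was the highest of its group for 91 of the 100 genes and the highest of all heifers for 11 of them. PUFA_Low replicate 10 was the highest of all for 62 genes. PUFA_High replicate 2 stood at the other end, with a mean of 7.17, and was the lowest of all 60 heifers for 67 genes. The description of these genes as raised in PUFA_Low alone therefore holds for group means and not for each animal.

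**Figure D2:**
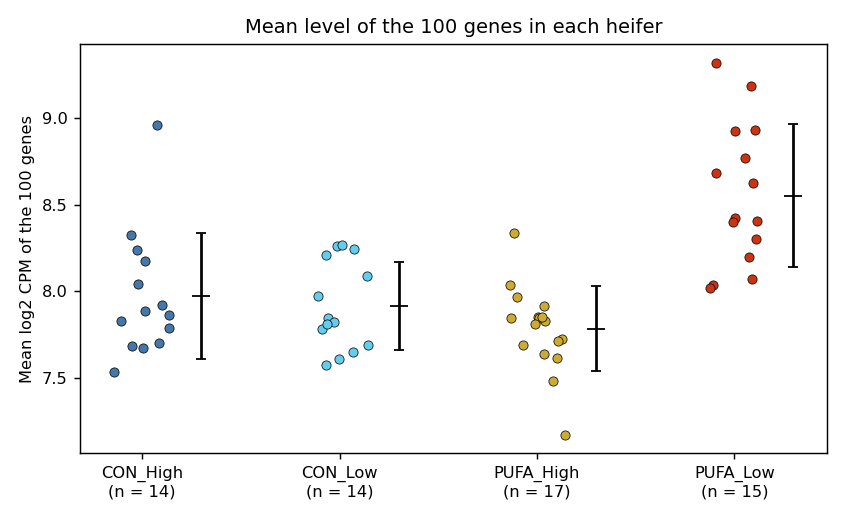
Mean log2 CPM of the 100 genes in each heifer (points) by dietary group, with the group mean and SD (bars). PUFA_Low heifers run from 8.02 to 9.32, and 1 CON_High heifer at 8.96 lies among the highest of them.

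As a share of all counted reads, the 100 genes took 4.90% ± 1.25 (SD, n = 15) in PUFA_Low, 3.03% ± 0.407 (SD, n = 17) in PUFA_High, 3.35% ± 0.533 (SD, n = 14) in CON_Low and 3.51% ± 0.800 (SD, n = 14) in CON_High. In PUFA_Low replicate 10 the share was 7.74% (95% Wilson interval 7.73 to 7.76) and in PUFA_High replicate 2 it was 2.19% (2.18 to 2.20). Such intervals cover counting error only, and the spread between heifers was far wider.

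Contrasts among the other 3 groups do not hold PUFA_Low, although their highest mean entered the gap, and both use the CON_High heifers. Between the planes in control heifers, 0 of the 100 genes and 0% of all genes tested were called by edgeR, and DESeq2 called 0 of the 100. The smallest adjusted p-value among the 100 was 0.911 (edgeR). At an unadjusted p-value under 0.05 there was 1 gene of the 100, lower on the low plane, against 4.91% of all genes tested in either direction and 3.65% in that direction. Levels were lower on the low plane for 83 of the 100 and for 53.8% of all genes, with a median log2 fold change of -0.10 for the 100. That direction rested on CON_High replicate 11, and without it 49 of the 100 were lower (55.2% of all genes), with a median of 0.00. With the share of counts on the 100 most abundant genes as a covariate 71 were lower (52.6% of all genes, median of the 100 -0.05). With genes detected per library as a covariate 65 were (52.1% of all genes, median of the 100 -0.03).

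On the high plane, n-3 PUFA heifers had lower levels than control heifers for 96 of the 100 genes, against 50.3% of all genes tested. The median log2 fold change of the 100 was -0.24, with values from -0.43 to 0.18 and a median standard error of 0.139, whereas the median of all genes was -0.00. None of the 100 and 0% of all genes were called by edgeR, with a smallest adjusted p-value of 0.352 among the 100, and DESeq2 called 0 of the 100 and 0.0139% of all genes. At an unadjusted p-value under 0.05 there were 33 of the 100, all lower in n-3 PUFA heifers, against 10.5% of all genes tested in either direction and 5.57% in that direction. Without CON_High replicate 11 the direction held for 85 of the 100 (50% of all genes), and the median of the 100 was -0.14. At that level 2 genes were then left, against 7.18% of all genes in either direction. Without PUFA_High replicate 2 there were 14, against 7.25% of all genes in either direction, with a median of -0.22. The number of genes lower at this level also depended on the model. It was 3 with the replicate number as a block (2.44% of all genes), 16 with a block for library code prefix (3.88%) and 52 with genes detected per library as a covariate (8.33%). With the share of counts on the 100 most abundant genes as a covariate it was 8 (2.52%) and 1 gene was higher, 72 of the 100 had a lower level (49.2% of all genes), and the median was -0.09. No single gene of the list passed the adjusted threshold here, and the median difference was smaller without 1 control heifer.

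In their group means, 89 of the 100 genes were lowest in PUFA_High, 7 in CON_High and 4 in CON_Low. The next highest mean after PUFA_Low was that of CON_High for 80 genes and of CON_Low for 20, and for 0 genes that of PUFA_High. That order rested on CON_High replicate 11, and without it the next highest mean was that of CON_High for 45 genes, of CON_Low for 53 and of PUFA_High for 2, while 82 genes were lowest in PUFA_High. Since the genes rise and fall together in the heifers, as described next, these counts do not stand for independent observations.

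Within dietary groups the 100 genes varied together. After each group's mean had been subtracted, which removes the group means that the ranking used, the median Pearson r over the 4950 pairs of these genes was 0.742 across 60 heifers, and 77.0% of pairs were above 0.5. Among the 2312 other eligible genes the median was 0.00932 over 2671516 pairs, with 9.59% above 0.5. The genes share libraries and scale factors, and the values are given as a description across genes. All 100 were chosen for a difference in the same direction, so subtracting group means does not free their correlation from the choice. The other eligible genes hold both directions, and 49.0% of their pairs were below 0 (0.828% for the 100 genes). Separately by group, the median over pairs of the 100 genes was 0.871 in PUFA_Low (n = 15), 0.674 in PUFA_High (n = 17), 0.651 in CON_Low (n = 14) and 0.755 in CON_High (n = 14), where it was 0.577 without replicate 11. A single component held 70.6% of the variance of these deviations for the 100 genes and 30.4% for the other eligible genes. The 100 genes with the largest row sums, which were left out of the ranking, had a median r of 0.225 among themselves.

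**Figure D3:**
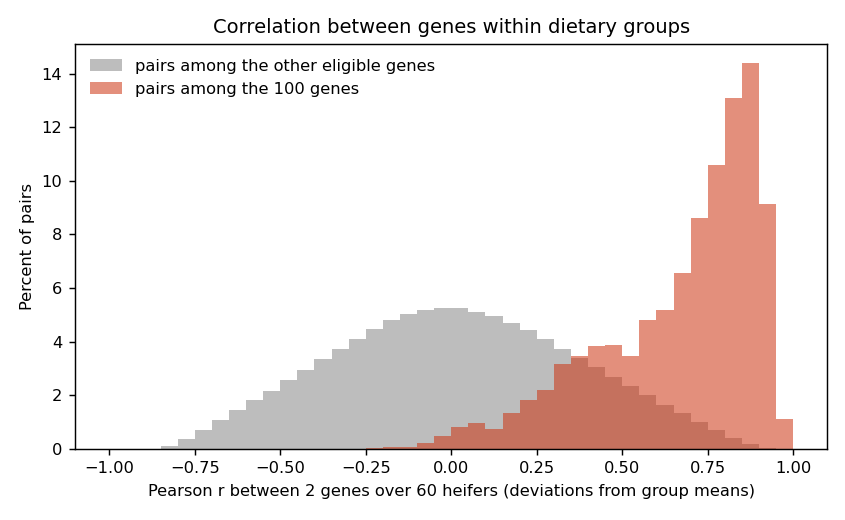
Distribution of Pearson r between pairs of genes over 60 heifers, after subtraction of group means, for the 100 genes (red) and the other 2312 eligible genes (grey). The y axis gives the percent of pairs in each bin, and the medians are 0.742 and 0.00932.

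Most genes of the list followed the mean of the other 99 closely. The median r of a gene with that mean was 0.890 over all heifers and 0.870 over the control heifers alone, again on deviations from group means. It was above 0.7 for 82 genes, and the highest value, 0.985, belonged to the gene at rank 19. A minority of 9 genes had an r under 0.5. The lowest, 0.0739, was that of the gene at rank 81, with 105 ± 31.3 CPM (SD, n = 15) in PUFA_Low and 72.4 ± 41.8 CPM (SD, n = 17) in PUFA_High. In that group it ranged from 9.19 to 147 CPM. These 9 genes, grouped after their values had been seen, were less abundant than the list as a whole, with a median log2 CPM of 6.87. Only 5 of them had a lower mean in PUFA_High than in CON_High (median log2 fold change -0.03), compared with 91 of the other 91 (median -0.25).

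**Figure D4:**
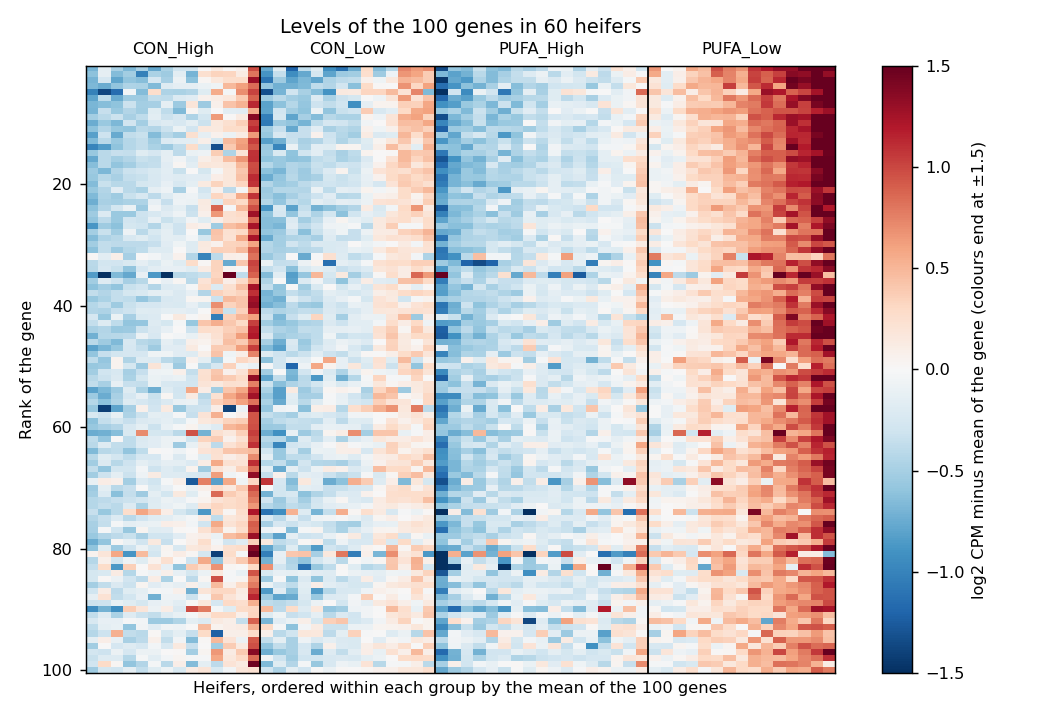
Log2 CPM of each of the 100 genes (rows, by rank) minus its mean over 60 heifers (columns, ordered within each group by the mean of the 100 genes). Columns change colour almost as blocks, the last CON_High column (replicate 11) is red for most genes like the highest PUFA_Low columns, and a few rows, rank 81 among them, do not follow the rest.

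Spread between heifers was also larger for these genes than for the other eligible genes. The median SD of log2 CPM in PUFA_Low was 0.456 for the 100 genes and 0.275 for the others. It was 0.307 and 0.250 in PUFA_High, 0.324 and 0.218 in CON_Low and 0.432 and 0.313 in CON_High. The largest of the 4 SDs fell in PUFA_Low for 58 of the 100 genes and for 24.7% of the others.

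Genes outside the list moved along with it. On the same deviations, 153 of the 2312 other eligible genes (6.62%) had an r above 0.7 with the mean of the 100 genes, and 96 (4.15%) had one below -0.7. The 153 had a median log2 fold change of 0.39 from PUFA_High to PUFA_Low and the 96 one of -0.43. Over all 14263 other genes tested, 454 were above 0.7 (3.18%) and 282 below -0.7 (1.98%). Of the 100 genes with the largest row sums, 37 were above 0.7 and 0 below -0.7. Had these not been left out, 29 of them would have entered the list and 71 of its genes would have stayed.

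The share of all counts on those 100 most abundant genes moved with the list. Heifer by heifer, its Pearson r with the mean of the 100 genes described here was 0.957 in PUFA_Low (n = 15), 0.838 in PUFA_High (n = 17), 0.788 in CON_Low (n = 14) and 0.889 in CON_High (n = 14). Spearman's rho was 0.946, 0.870, 0.824 and 0.925. Both measures come from the same libraries, and no p-value is given for a mean over chosen genes. The share ranged from 21.4% to 30.6% in PUFA_Low (median 24.9%), from 17.9% to 24.7% in PUFA_High (median 20.9%), from 19.3% to 25.9% in CON_Low (median 21.5%) and from 18.8% to 28.2% in CON_High (median 20.9%). With this share as a covariate in the model, 1 of the 100 genes was called from PUFA_High to PUFA_Low in place of 85, 0 from CON_Low to PUFA_Low in place of 65 and 0 for the interaction in place of 86 (edgeR). In the same fit 0.0348%, 0% and 0% of all genes were called higher. The median log2 fold change of the 100 genes was 0.20, 0.17 and 0.25 in these contrasts, in place of 0.77, 0.66 and 0.89, with 45, 42 and 44 of them higher at an unadjusted p-value under 0.05 (4.06%, 2.28% and 1.89% of all genes). Fold changes in this fit were negative for 5, 3 and 3 of the 100, against 51.6%, 48.7% and 49.9% of all genes. With the 100 most abundant genes removed and totals recomputed, the counts were 82, 63 and 86, beside 2.03%, 1.18% and 4.04% of all genes tested. Its part in the level of the list was not tested further.

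**Figure D5:**
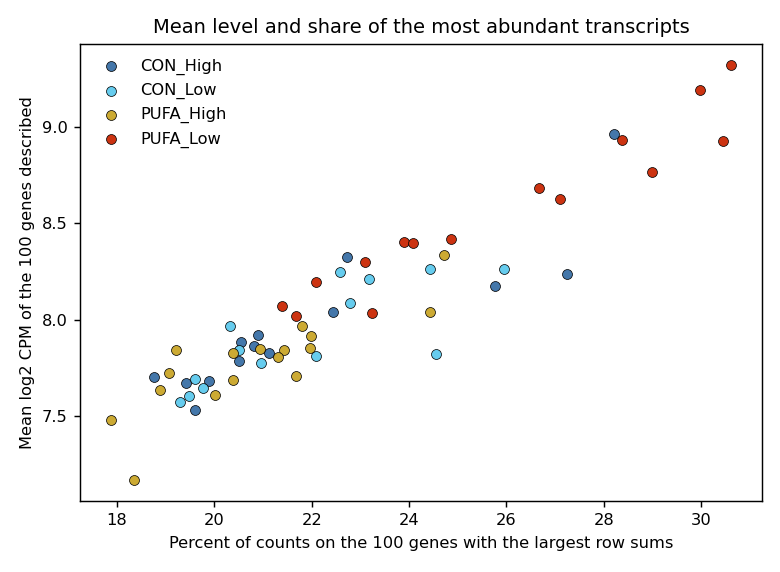
Mean log2 CPM of the 100 genes described (y axis) against the percent of all counts on the 100 genes with the largest row sums (x axis), with 1 point per heifer coloured by dietary group. The mean rises with the share in every group, and CON_High replicate 11 lies at 28.2% and 8.96. At similar shares PUFA_Low heifers lie above some heifers of the other groups and below others, and the pairs given here were picked after their values had been seen. PUFA_Low replicate 2 (24.9%, 8.42) lies above PUFA_High replicate 4 (24.7%, 8.33) and CON_Low replicate 4 (24.5%, 7.82). PUFA_Low replicate 4 (23.2%, 8.04) lies below CON_Low replicate 6 (23.2%, 8.21).

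The TMM scale factor, which is computed from the same counts and is used in the log2 CPM, also moved with the list. It was 0.941 ± 0.0763 (SD, n = 15) in PUFA_Low, 1.03 ± 0.0516 (SD, n = 17) in PUFA_High, 1.02 ± 0.0420 (SD, n = 14) in CON_Low and 1.01 ± 0.0804 (SD, n = 14) in CON_High. Its Pearson r with the mean of the 100 genes was -0.882, -0.746, -0.637 and -0.806 in that order of groups. For the mean log2 CPM of the 100 most abundant genes, r was 0.839, 0.861, 0.769 and 0.832. The number of genes with at least 1 count was lower in heifers with a higher mean of the 100 genes, with a Pearson r of -0.587 in PUFA_Low, -0.481 in PUFA_High, -0.256 in CON_Low and -0.795 in CON_High. It was 16561 ± 131 (SD, n = 15) in PUFA_Low, 16667 ± 131 (SD, n = 17) in PUFA_High, 16719.5 ± 132 (SD, n = 14) in CON_Low and 16690 ± 216 (SD, n = 14) in CON_High. With it as a covariate, 62 of the 100 genes were called from PUFA_High to PUFA_Low (1.57% of all genes), 19 from CON_Low to PUFA_Low (0.348%) and 65 for the interaction (1.31%). The median log2 fold change of the 100 genes in these contrasts was then 0.64, 0.43 and 0.68. Total counts had an r of -0.358 in PUFA_Low and between 0.241 and 0.422 in the other groups. The reference gene, held within ±0.4 by the choice of genes, had an r of -0.0927 in PUFA_Low, 0.340 in PUFA_High, -0.237 in CON_Low and -0.235 in CON_High. RNA quality of single libraries was not analysed here.

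Library codes in the labels begin with 1 of 6 prefixes, JE1 to JE6, and what they stand for is not stated. Within each prefix the mean of the 100 genes was higher in PUFA_Low than in PUFA_High (6 of 6, by 0.37 to 1.08 on the log2 scale) and than in CON_Low (6 of 6, by 0.39 to 0.89). It was higher than in CON_High in 5 of 6, the exception being prefix JE5 with a difference of -0.00595, which holds CON_High replicate 11. PUFA_High was below CON_High in 5 of 6 prefixes, by up to 0.63 in JE5, and CON_Low below CON_High in 3 of 6. Each prefix held 2 or 3 heifers of a group, so no test was made within prefixes. The ranking used all of these heifers, so a higher mean in PUFA_Low within prefixes describes the list and is no independent support.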

How the data were processed

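Per the labels and the methods of the study, the authors aligned single-end reads with TopHat2 2.0.9 to UMD3.1 and counted them per gene with HTSeq 0.5.4p5. The deposited values are raw counts, 1 column per heifer (60 libraries, 9635801 to 13943813 counts), and the strand setting is not given in the sources used here. Of the 24616 identifiers, 0 could be paired with a symbol in the table used (assembly ARS-UCD2.0, 37063 genes), so the planned gene lists, cell type markers and sequences were not used. The members and lists were chosen with earlier results of these data known.

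In R 4.3.3, edgeR 4.0.16 was used for filterByExpr, TMM scaling, log2 CPM (prior count 2) and a quasi-likelihood fit over all heifers with a term for every diet. p-values were adjusted by Benjamini-Hochberg over 14363 genes, with calls at an adjusted p-value below 0.10 and more than 1.5-fold change. The methods of the study set the adjusted p-value at 0.001, which was run as an alternative. Dividing a fold change by the root of its F statistic gave its standard error. Labels treat each heifer as a separate sample. Genes to be named were set as the 25 with the highest rank that have a symbol or, without symbols, the 2 with the highest rank. Alternatives covered scaling, DESeq2 1.42.0, filters, thresholds, blocks, covariates, exchanged planes and each heifer left out. On simulated counts with 200 genes raised in PUFA_Low among 14316 tested, 97 of 100 at 2-fold and 83 of 100 at 1.5-fold were found at an adjusted p-value below 0.10 from PUFA_High to PUFA_Low, where 19 calls were of unchanged genes. For the interaction it was 88 and 55 with 12 unchanged, for CON_Low to PUFA_Low 97 and 79 with 21 unchanged, while no call was made from CON_High to CON_Low (0 genes). These calls used no limit on the fold change. Each gene was simulated independently of the others, so the counts do not carry over to genes that vary together between heifers.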

Additional observations from a re-analysis of the deposited data

How the results depend on the processing

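Across other scale factors, DESeq2, filters, fits on the compared groups alone, blocks and removal of the 100 most abundant genes, the counts of called genes among the 100 stayed within 1.5 times those reported and kept their direction, except that scaling by total counts alone gave 29 from CON_Low to PUFA_Low (65 with TMM). That scaling shifted the median of all genes in this contrast to -0.13, from -0.01. At an adjusted p-value under 0.001 there were 24 in this contrast and 0 for the interaction, for which 96 of the 100 were higher at an unadjusted p-value below 0.05 by edgeR (15.7% of all genes) and DESeq2 called 87 at 0.10 (4.92%). With the share of the 100 most abundant genes as a covariate, 1 gene was called from PUFA_High to PUFA_Low, 0 from CON_Low to PUFA_Low and 0 for the interaction. With genes detected per library as covariate, chosen after seeing the data, 19 were called from CON_Low to PUFA_Low. The cause was not tested. With the planes of supplemented heifers exchanged, 85 genes were called lower on the low plane in these heifers (2.44% of all genes) and 58 lower in the interaction (1.08%), 38 were called higher with n-3 PUFA on the high plane (0.759%, median log2 fold change 0.53) and 0 on the low plane (0.0278%), and the rule would have chosen 0 of the same genes.

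Of the 100 genes, 99 would be chosen again under upper-quartile factors, 93 with total counts alone and 72 by group medians. With each heifer left out in turn (added after seeing the data), 88 to 100 were chosen again. The calls then numbered 79 to 89 from PUFA_High to PUFA_Low, 49 (without PUFA_Low replicate 10) to 75 from CON_Low to PUFA_Low and 82 to 90 for the interaction. They were 0 in all 60 fits of both contrasts without PUFA_Low. With all heifers kept, the first 3 counts were 85, 65 and 86, beside 2.44%, 1.52% and 4.46% of all genes. For the fits with a heifer left out, the share of all genes is not given here. The median log2 fold change of the 100 genes ranged from -0.14 to 0.00 between planes in control heifers and from -0.29 to -0.14 between supplements on the high plane. Whether replicate numbers pair the heifers is not stated in the labels. Deviations of same-numbered heifers of different groups correlated at -0.0531 on average, and those of other-numbered heifers at 0.00459. These averages show no sign of a pairing but cannot exclude one. With the replicate block, 81, 64 and 83 genes were called in the contrasts with PUFA_Low (2.05%, 1.39% and 3.15% of all genes) and 0 in the others (0%), and the genes lower with n-3 PUFA on the high plane at an unadjusted p-value below 0.05 fell from 33 to 3. For the interaction the groups compared are all groups, so no separate fit was made. The gene lists set by symbol could not be run, since no identifier was paired with one.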
